A study of Danio rerio with 4 samples.

Results

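The expression of 5 genes around the gastrula-to-somite transition was examined in zebrafish embryos that express an interfering form of Pou5f3, namely that of elf3, irf1b, cxcl14, ccn1 and ptprn2l. They were selected on their measured values, since each had a probe set with a signal at least 2-fold higher in en-pou5f3 embryos than in their wild-type siblings at both stages examined, so the genotype differences below are given as a description, with no test. The 5 genes were measured by 7 of the 15502 probe sets that remained after control probe sets were left out. Of the 7, 5 probe sets (1 for each gene) passed 2-fold at both stages and 2 further ccn1 probe sets did not. In all, 22 of the 11128 probe sets measurable at both stages (0.198%) were at least 2-fold higher at both.

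Pou5f3 is a POU-domain transcription factor related to mammalian Oct4, and it is needed for zygotic gene activation, patterning and brain formation in the fish embryo. Tg(hsp:en-pou5f3) embryos carry a fusion of Pou5f3 to the repressor domain of Engrailed under a heat shock promoter, so the whole embryo can make the interfering protein after heating. The embryos came from crosses of hemizygous transgenic and wild-type fish of the RW strain, were raised at 25°C, were kept at 37°C for 60 min and then developed for 30 min more. Both genotypes were heated in the same way, at 90% epiboly (late gastrula) or at the 3-somite stage (3-ss), and embryos left unheated were not analysed here. RNA of several embryos was pooled by genotype, and each of the 4 conditions (siblings and transgenic embryos, at either stage) has 1 array made from 250 ng of RNA. Wild-type embryos are also called siblings below, and en-pou5f3 embryos are also called transgenic.

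The 5 genes encode proteins of different kinds. elf3 encodes an ETS-domain transcription factor that is known from epithelia, and irf1b encodes an interferon regulatory factor, a class of transcription factor that acts in interferon responses. cxcl14 encodes a secreted chemokine, and ccn1 encodes a secreted matricellular protein that in mammals is both an immediate-early gene and a target of the Hippo effector YAP. The name ptprn2l places its product beside PTPRN2, which in mammals is a membrane protein of dense-core secretory vesicles with a tyrosine phosphatase-like domain. For ptprn2l the symbol comes from the study's tables alone. The array annotation used here does not list its probe set, and the RefSeq gene table (assembly GRCz12tu) has no gene of that name.

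With 1 array per condition there is no replicate check and no test. The array signals are MAS5 intensities on a linear scale, and signals of different probe sets cannot be set against each other. A floor of 32.4, under which lay 95% of 80 control signals (20 control probe sets with no zebrafish target), was used as the lowest signal in each ratio. As a measure of spread, log2 ratios of probe sets for the same gene had an SD of 0.274 at 90% epiboly and 0.337 at 3-ss. This SD does not cover differences between embryos. Across all measured probe sets the median log2 ratio between the genotypes was 0.03 at 90% epiboly and 0.01 at 3-ss. Of the 24 probe sets for the RNA spikes added before labelling (dap, lys, phe and thr), the median log2 ratio was -0.03 at 90% epiboly and 0.30 at 3-ss, and that of the 18 for the hybridisation spikes was -0.01 and 0.07. None of these spikes reached 2-fold, and their part in the differences below was not tested.

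elf3 had a signal of 54.3 in siblings and 243 in transgenic embryos at 90% epiboly, then 86.8 and 474 at 3-ss. Both transgenic arrays were above both wild-type arrays. The en-pou5f3 signal was 4.47-fold that of wild-type at 90% epiboly (log2 ratio 2.16) and 5.46-fold at 3-ss (2.45). With signals under the floor raised to it, elf3 was the only one of the 5 genes, and the only probe set of all, at least 3-fold higher at both stages. The 3-fold count over all probe sets was not made with other floors.

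irf1b had signals of 54.1 in siblings and 225 in transgenic embryos at 90% epiboly, then 555 and 1300 at 3-ss. The genotype difference was 4.15-fold at 90% epiboly (log2 ratio 2.05) and 2.34-fold at 3-ss (1.23). In wild-type embryos alone the irf1b signal was 10.3-fold higher at 3-ss than at 90% epiboly, so that the wild-type array at 3-ss lay above the en-pou5f3 array at 90% epiboly.

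cxcl14 followed the same order of arrays. Its signal was 169 in siblings and 530 in transgenic embryos at 90% epiboly, then 1581 and 3965 at 3-ss. The genotype difference was 3.13-fold at 90% epiboly (log2 ratio 1.65) and 2.51-fold at 3-ss (1.33), beside a 9.35-fold higher signal at 3-ss than at 90% epiboly in wild-type embryos.

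ccn1 is represented by 3 probe sets, which did not give the same result. Its brightest probe set had signals of 58.4 in siblings and 160 in transgenic embryos at 90% epiboly, then 234 and 680 at 3-ss. It was 2.75-fold higher in en-pou5f3 embryos at 90% epiboly (log2 ratio 1.46) and 2.91-fold higher at 3-ss (1.54). The next brightest lay near the floor, with signals of 31 and 43.5 at 90% epiboly, then 42.6 and 55.7 at 3-ss. There the en-pou5f3 signal was at least 1.34-fold that of wild-type at 90% epiboly and 1.31-fold at 3-ss. The last stayed under the floor on all 4 arrays, between 4.04 and 7.22. With the 2 probe sets that reach the floor averaged, the log2 ratio of ccn1 was 0.94 at 90% epiboly and 0.96 at 3-ss, short of 2-fold, a choice made after the values were seen.

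ptprn2l had signals of 104 in siblings and 289 in transgenic embryos at 90% epiboly, then 161 and 748 at 3-ss. Both transgenic arrays were above both wild-type arrays, as for elf3. The genotype difference was 2.77-fold at 90% epiboly (log2 ratio 1.47) and 4.64-fold at 3-ss (2.21).

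**Figure D1:**
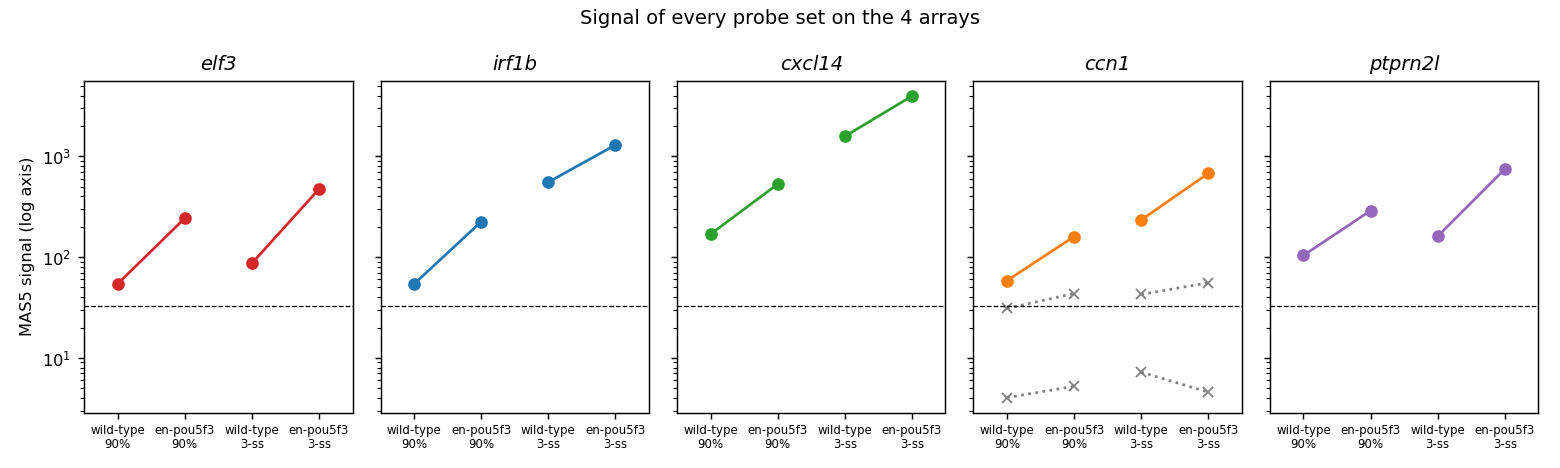
MAS5 signal (log axis) of each probe set of the 5 genes on the 4 arrays; lines join wild-type and en-pou5f3 embryos of 1 stage, grey crosses are the 2 ccn1 probe sets that did not pass 2-fold, and the dashed line is the floor of 32.4. In the coloured probe sets the en-pou5f3 point lies above the wild-type point at both stages.

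Each stage had a background of probe sets that differed between the genotypes by 2-fold. At 90% epiboly 151 of 11594 measured probe sets (1.30%) were higher and 261 (2.25%) were lower in en-pou5f3 embryos, and at 3-ss 215 of 11970 (1.80%) were higher and 232 (1.94%) were lower. Since the 5 genes were chosen by these ratios, nothing is read from their place among them.

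The genotype difference was not of the same size at both stages in every gene. Taken as the log2 ratio at 3-ss minus that at 90% epiboly, the change was 0.09 for ccn1, 0.29 for elf3 and -0.32 for cxcl14, all less than 0.434, the SD between probe sets of a gene combined over the stages. It was -0.83 for irf1b, whose difference was the smaller at 3-ss, and 0.74 for ptprn2l, whose difference was the larger there, and both exceeded that SD. These differences have no replicate check. For irf1b the change was -0.39, within the SD, when the floor was added to both signals instead of serving as a lower limit.

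**Figure D2:**
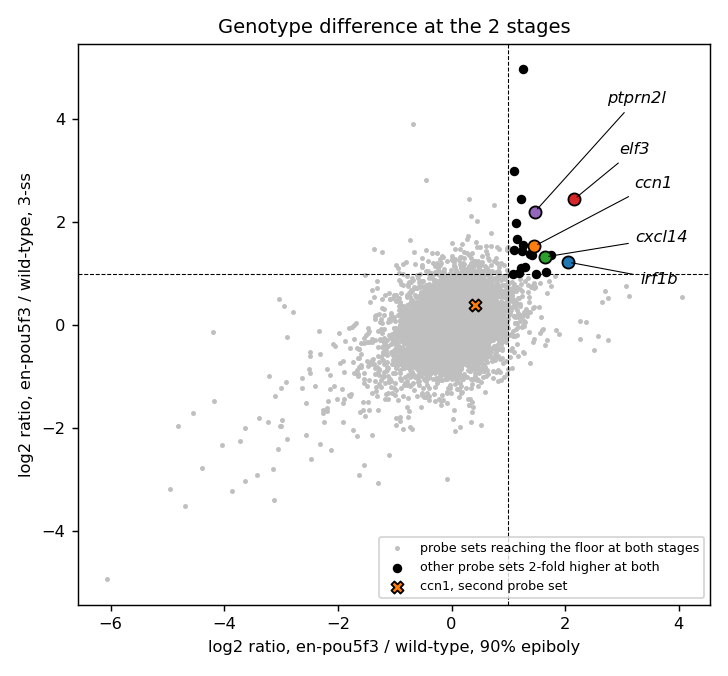
Log2 ratio of transgenic over sibling signals at 90% epiboly (horizontal) and at 3-ss (vertical) for the 11128 probe sets measurable at both stages (grey), the 17 other probe sets past 2-fold at both (black) and the 5 genes (coloured, named); dashed lines mark 2-fold. The second ccn1 probe set, at 0.42 and 0.39, lies in the body of the cloud.

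The comparison of the stages, which the choice of genes did not use directly, was made on the same 4 arrays, and a low wild-type signal at 90% epiboly raises the stage ratio in wild-type and the genotype ratio at 90% epiboly alike. All 5 genes had higher signals at 3-ss than at 90% epiboly in both genotypes, by 1.55-fold to 10.3-fold in wild-type and by 1.95-fold to 7.48-fold in en-pou5f3 embryos. By the probe sets chosen for their genotype ratios, 3 of the 5 passed 2-fold in wild-type embryos, namely irf1b, cxcl14 and ccn1, where 8.0% of 11815 measured probe sets were 2-fold higher and 3.97% lower at 3-ss. In en-pou5f3 embryos 4 of the 5 passed, where 7.67% of 12010 were higher and 3.17% lower. The second ccn1 probe set had stage ratios of only 0.39 (a bound) in siblings and 0.36 in transgenic embryos on the log2 scale.

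By the size of the stage ratio the genes were divided, after the values were seen, into a pair and a trio. elf3 and ptprn2l did not reach 2-fold with stage in wild-type embryos, with log2 ratios of 0.68 and 0.63 beside an SD of 0.395 between probe sets of a gene for this comparison. Their signals in en-pou5f3 embryos at 90% epiboly were above those of wild-type embryos at the later stage, 2.8-fold for elf3 and 1.79-fold for ptprn2l. In the trio the order was the other way. The wild-type signal at 3-ss exceeded the en-pou5f3 signal at 90% epiboly by 1.46-fold for ccn1, by 2.47-fold for irf1b and by 2.98-fold for cxcl14, and the log2 ratios of 3-ss over 90% epiboly in wild-type were 2.0, 3.36 and 3.22. The place of ccn1 rests on its brightest probe set. Its second, near the floor, had 42.6 in wild-type at 3-ss and 43.5 in en-pou5f3 embryos at 90% epiboly. The stage ratio in en-pou5f3 embryos was 2.09 for ccn1, 2.53 for irf1b and 2.90 for cxcl14, and it was 0.97 for elf3 and 1.37 for ptprn2l. From the lowest array, wild-type at 90% epiboly, to the highest, en-pou5f3 at 3-ss, the signals spanned 7.18-fold for ptprn2l, 8.74-fold for elf3, 11.6-fold for ccn1, 23.4-fold for cxcl14 and 24-fold for irf1b.

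**Figure D3:**
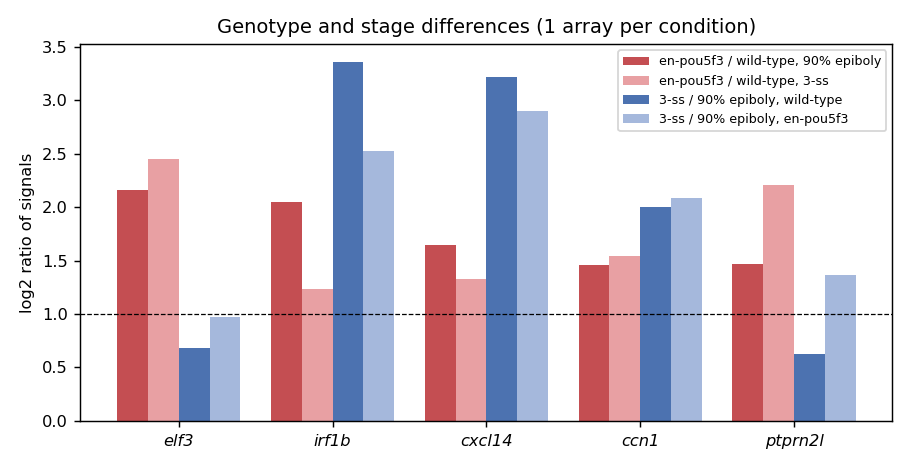
Log2 ratios of signals for the probe set of each gene that passed 2-fold, by genotype at each stage (red) and by stage within each genotype (blue); each bar rests on 2 arrays, and no error can be given. The stage bars of irf1b, cxcl14 and ccn1 are as high as or higher than their genotype bars, whereas in elf3 and ptprn2l the genotype bars are the higher.

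The likeness of the profiles was measured as the Euclidean distance between centred log2 signals over the 4 arrays, which is a description of 4 points only. The 5 genes were chosen by these same signals, so their likeness in the genotype differences follows in part from that choice. No shared regulation is read from the distances. Among 7740 probe sets with 1 gene symbol and a signal over the floor on every array, cxcl14 was the nearest to irf1b and irf1b the nearest to cxcl14, at a distance of 0.319, the smallest of the 10 pairs among the 5 genes. elf3 was the nearest to ptprn2l, at 0.546. The pair least alike was elf3 and cxcl14, at 2.41. Next to irf1b and to cxcl14 came fosl2, a FOS-family subunit of the AP-1 transcription factor, and si:ch73-335l21.4, and their distances to irf1b were 0.799 and 0.946. The nearest to ccn1 were fosl2 (0.57), tcima (0.666) and jun (0.692), jun being another AP-1 subunit. ptprn2l itself, which has no symbol in the annotation, was not among the 7740, but at 0.546 it lay nearer to elf3 than any of them. Of the 7740 the nearest to elf3 were atf5a, which encodes a bZIP transcription factor, plvapb, whose product is a protein of endothelial diaphragms, and wu:fb55g09, at 0.914, 0.938 and 1.1. For ptprn2l elf3 was followed by atf5a (0.611) and plvapb (0.648).

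Besides the 5 genes, 17 probe sets were 2-fold higher at both stages, of which 8 have 1 gene symbol in the annotation: plvapb, atf5a, pde6hb, bnip3, sh3bgr, fosl2, kif5aa and furinb. plvapb had signals of 65.1 and 169 at 90% epiboly, then 108 and 283 at 3-ss, 2.61-fold higher at each stage. atf5a was 2.39-fold and 2.97-fold higher. fosl2 was 2.15-fold higher at 90% epiboly and 2.78-fold at 3-ss by its brightest probe set, and a second of its 3 probe sets had log2 ratios of 0.15 (a bound) and 1.19. Of the 17, 5 had 1 array under the floor, so that one of their differences is a bound, namely pde6hb, bnip3, sh3bgr, kif5aa and furinb. Of the other 9, 2 were named in the study's tables only (wu:fc22g01 and wu:fe16d09), 1 has several symbols (grna.1 and grna.2) and 6 have none. With stage in wild-type embryos, 3 of the 17 were 2-fold higher and 2 were 2-fold lower, beside 3 and 0 of the 5 genes. Of the 8 with 1 symbol, furinb lay just inside the threshold, with log2 ratios of at least 1.08 and of 1.00. A probe set with no symbol lay nearer still, its smaller log2 ratio being 1.002. Among probe sets with 1 symbol, the nearest below the threshold by the floored ratios were brd2a (0.999 at 90% epiboly, at least 1.53 at 3-ss), gja1b (at least 0.98, then 1.07) and ddah1 (0.98 and 1.46). The wild-type signal of gja1b at 90% epiboly, 29, was under the floor, so its ratio there may lie on either side of the threshold.

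Relatives of the 5 genes were read from the brightest probe set per gene, and fewer cells of a type cannot be told apart here from less RNA per cell. Of the 13 other ETS factors measured at 90% epiboly none passed 2-fold, their log2 ratios lay between -0.59 (etv4) and 0.70 (ets1), and their median was 0.18. At 3-ss 1 of 14 others passed, ets2, with signals of 186 in siblings and 418 in transgenic embryos (2.25-fold), against 100 and 143 at 90% epiboly (1.43-fold). ehf, another ETS factor known from epithelia, was under the floor on all 4 arrays.

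Another 5 interferon regulatory factors were measured, and none of them passed 2-fold at 90% epiboly. irf7, a factor of the antiviral interferon response, had signals of 62.9 in siblings and 49.7 in transgenic embryos at 90% epiboly, then 35.2 and 92.9 at 3-ss, where it was 2.64-fold higher. irf1a, the other zebrafish irf1 gene, was dim: its signals were 28.9 and 37.2 at 90% epiboly and 36.4 and 57.6 at 3-ss, at least 1.14-fold and 1.58-fold higher. irf9, a partner of STAT proteins, was at least 1.19-fold higher at 90% epiboly and 1.43-fold higher at 3-ss. irf2a and irf5 had log2 ratios of -0.28 and -0.24 at 90% epiboly, then 0.02 and 0.27 at 3-ss. With stage in wild-type embryos none of these 5 passed 2-fold, whereas irf1b was 10.3-fold higher.

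Genes of interferon and JAK-STAT signalling were 18 of 40 listed on the array. None of the 15 measured at 90% epiboly passed 2-fold in either direction, and the median over the list was 0.05. At 3-ss 3 of 14 were higher and none lower (2 by quantile normalization), their median being 0.37, beside 1.80% and 1.94% of all probe sets. These were socs3a, an inhibitor of cytokine signalling, with signals of 340 and 749 (2.20-fold), isg15, a ubiquitin-like product of interferon signalling, with 147 and 301 (2.05-fold), and b2m, the light chain of MHC class I, with 59.3 and 122 (2.06-fold). At 90% epiboly the same 3 genes had log2 ratios of 0.05, 0.42 and -0.28. At 3-ss stat5a had signals of 64.7 in siblings and 26 in transgenic embryos, and crfb1 63.1 and 31. Both transgenic signals were under the floor, so these drops may lie on either side of the threshold.

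Other chemokine genes did not share the difference of cxcl14. Of the 10 chemokine and receptor genes on the array, 6 besides cxcl14 were measured at 90% epiboly and 8 at 3-ss, and none of them was 2-fold higher at either stage. cxcl12a and cxcl12b, the ligands of Cxcr4, showed log2 ratios of -0.37 and -0.48 at 90% epiboly, then -0.25 and -0.41 at 3-ss. Of the receptors, 2 passed 2-fold in the other direction. cxcr4a had signals of 1542 in siblings and 351 in transgenic embryos at 90% epiboly, then 394 and 202 at 3-ss, so that it was 4.39-fold lower at the first stage and 1.95-fold lower at the second. ackr3b, a receptor that takes up Cxcl12, had signals of 774 and 295 and of 580 and 233, and was 2.63-fold and 2.49-fold lower.

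Of the CCN family 4 genes were on the array, and 2 reached the floor. ccn2a, which encodes connective tissue growth factor, had signals of 44.2 and 23.4 at 90% epiboly, a drop of at least 1.36-fold in transgenic embryos, and of 122 and 254 at 3-ss, 2.09-fold higher. It therefore differed in direction from ccn1 at the first stage and not at the second. With stage ccn2a was higher, as ccn1 was, by a log2 ratio of 1.46 in siblings and of at least 2.97 in transgenic embryos. ccn2b and ccn4b were under the floor on all 4 arrays. Among the remaining Hippo pathway genes, yap1 itself had signals of 3307 and 3528 at 90% epiboly, then 3778 and 3889 at 3-ss, and no Hippo or YAP target gene on the array other than ccn1 and ccn2a passed 2-fold at either stage.

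Immediate-early and stress-response genes were examined because ccn1 is one of the class in mammals. Of 26 measured at 90% epiboly, 4 were higher (fosl2, junba, ier5l and klf11a, by 2.15-fold, 2.42-fold, 2.23-fold and 2.66-fold) and 1 was lower (klf2a, 2.62-fold), beside 1.30% and 2.25% of all probe sets. At 3-ss 1 of 28 was higher, fosl2, and none was lower, beside 1.80% and 1.94%. The medians were 0.28 and 0.24. The larger movement in this list was with stage: in wild-type embryos 14 of 27 measured genes were 2-fold higher at 3-ss and 1 was lower, the median log2 ratio being 1.00, beside 8.0% and 3.97% of all probe sets. junba had the largest ratio (5.34, from a signal of 51.4 to 2085), followed by fosab (3.24) and dusp5 (3.15). The ratios of the list ran from -1.70 to 5.34. Those of irf1b, cxcl14 and ccn1 were 3.36, 3.22 and 2.0, and that of the second ccn1 probe set was 0.39 (a bound). A link of these genes with the list was not tested. The embryos of both stages had been heated, and handling or heat cannot be told apart from stage in these ratios.

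**Figure D4:**
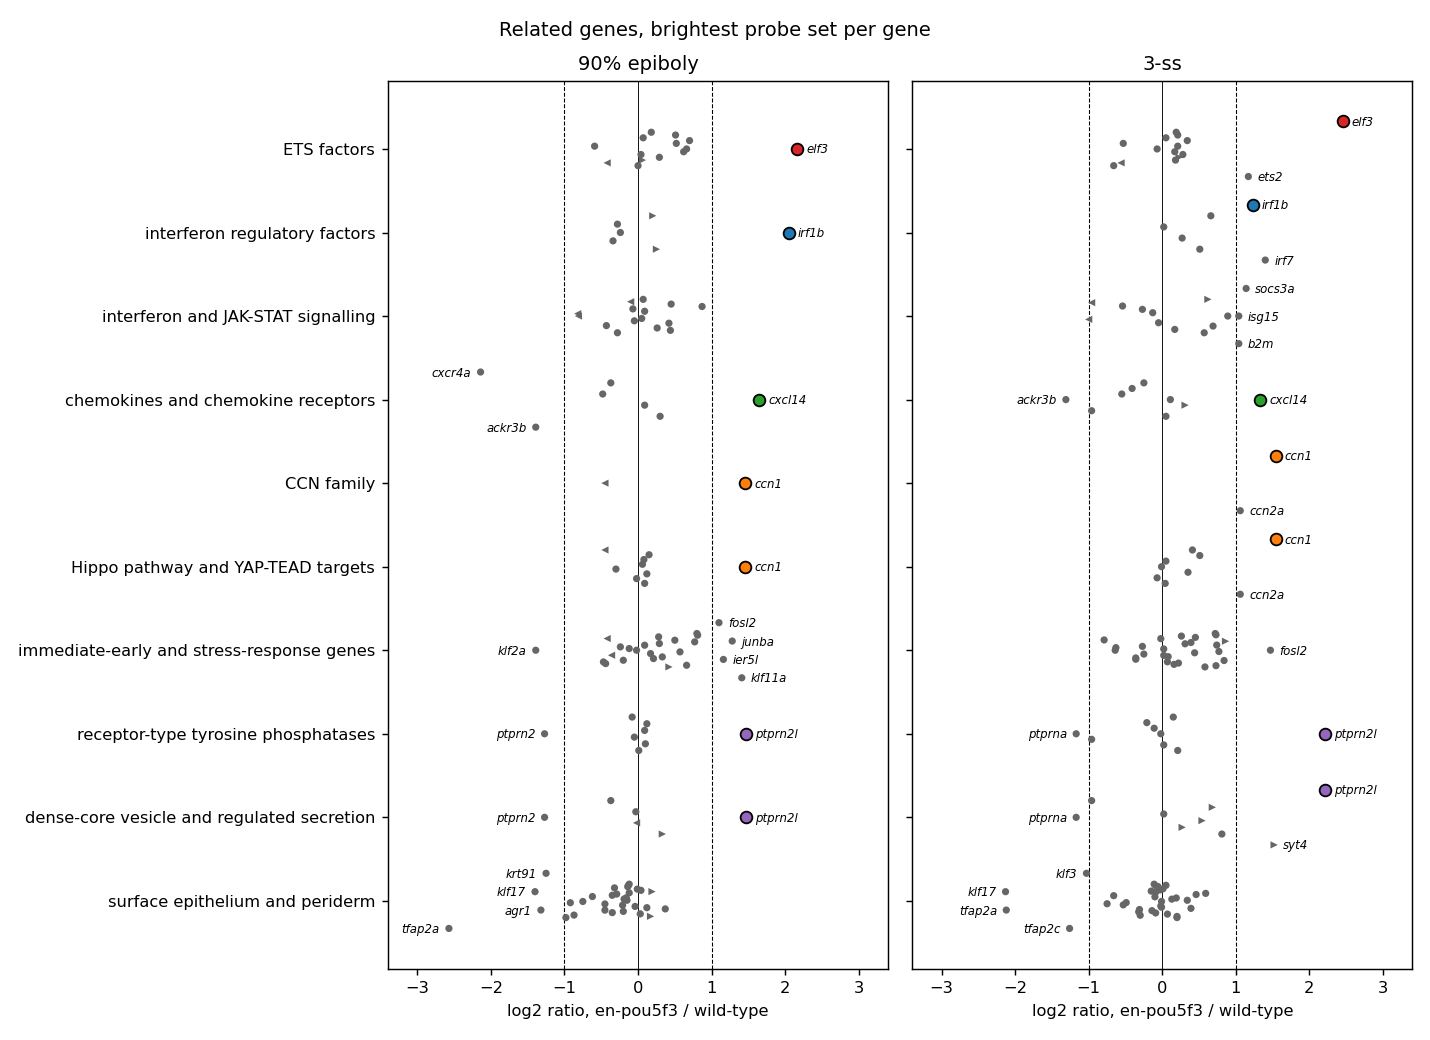
Log2 ratio of transgenic over sibling signals at 90% epiboly (left) and 3-ss (right) for the brightest probe set of each related gene, by gene list; large coloured points are the 5 genes, triangles are bounds in the direction they point, dashed lines mark 2-fold, and names are given past it. ptprn2l and cxcl14 lie opposite to ptprn2 and ackr3b in the same lists.

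The genes nearest in name to ptprn2l went the other way, ptprn2 past 2-fold at 90% epiboly and ptprna at 3-ss. ptprn2 had signals of 83.2 in siblings and 34.5 in transgenic embryos at 90% epiboly, then 125 and 64.3 at 3-ss, 2.41-fold and 1.95-fold lower. ptprna, which encodes another protein of the family, was under the floor in both genotypes at 90% epiboly and had signals of 145 and 64.3 at 3-ss, 2.25-fold lower. Of the other receptor-type tyrosine phosphatases none passed 2-fold at either stage. Among genes of dense-core vesicles and regulated secretion, syt4, a synaptotagmin, had signals of 23.4 and 92.8 at 3-ss and was at least 2.86-fold higher there, and was under the floor in both genotypes at 90% epiboly. snap25a, a subunit of the vesicle fusion complex, had log2 ratios of at least 0.33 and 0.81, and scg3, a secretogranin, had -0.03 and 0.02. chga, which encodes a chromogranin, lay near the floor, between 27.4 and 51.9. Of the 14 genes of this list on the array 5 were under it on every array.

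Markers of cell types were set beside these values. For elf3, which is known from epithelia, the surface epithelium and periderm list had 35 of 46 genes on the array, and none was 2-fold higher at either stage, while 4 of 32 measured at 90% epiboly and 4 of 34 at 3-ss were lower, beside 2.25% and 1.94% of all probe sets. The summed signal of this list was 142802 in siblings and 123772 in transgenic embryos at 90% epiboly, then 148350 and 141141 at 3-ss. Between 72% and 77.6% of each sum came from 5 keratin genes (krt4, krt5, krt8, krt17 and krt18a.1), and without them the sums were 38128 and 27744, then 41577 and 36949. The keratin gene krt4 had signals of 22580 and 20818 at 90% epiboly, then 27052 and 25124 at 3-ss, whereas tfap2a, a transcription factor of ectoderm, was 5.93-fold and 4.36-fold lower, and klf17, a Krüppel-like factor of the hatching gland, was 2.65-fold and 4.38-fold lower. klf4 was the only gene of this list under the floor on all 4 arrays.

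Of the early blood, macrophage and vessel list 14 of 22 genes were on the array, 2 of them (mpx and runx1) under the floor on every array by their brightest probe set. plvapb was 2-fold higher at both stages and no other gene of the list was at either, of 11 measured at 90% epiboly and 12 at 3-ss, beside 1.30% and 1.80% of all probe sets. gata2a was lower at 90% epiboly and just short of 2-fold at 3-ss (signals of 1054 and 527), where gata1a was lower, beside 2.25% and 1.94%. The summed signal was 7809 and 6613 at 90% epiboly and 7260 and 8622 at 3-ss. Such sums are led by the brightest probe sets, and here cebpb alone had 2403 and 3987 at 3-ss. The endoderm and yolk syncytial layer list, with 18 of 22 genes on the array, had 1 of 18 measured genes higher (ttpa) and 5 lower at 90% epiboly, beside 1.30% and 2.25% of all probe sets. At 3-ss 2 of 17 were higher (sox32 and grna) and 1 lower, beside 1.80% and 1.94%. Its summed signal was 33124 and 24637, then 32474 and 34179. That sum was led by ctsla (16844 and 15865, then 9581 and 10576) and apobb.1 (5514 and 2241, then 12615 and 11767). The part of cell composition in the values of the 5 genes was not tested. All 30 general markers of the late gastrula and early somite embryo on the array, of 35 listed, reached the floor on at least 1 array, with msgn1, a paraxial mesoderm gene, between 11362 and 12956. Of these markers, by their brightest probe sets, 11 of 30 measured were 2-fold lower and none higher in transgenic embryos at 90% epiboly, beside 2.25% and 1.30% of all probe sets. At 3-ss 6 of 29 were lower and 1 higher, beside 1.94% and 1.80%. A second tbx16 probe set had a log2 ratio of 1.56 at 90% epiboly, against 0.43 by the brightest, and tbx6 had 0.98. The largest ratios at 90% epiboly were those of zic1 (-4.55), gsc (-4.18), sox2 (-2.5) and pax2a (-2.49), genes of the neural plate and of the organizer. The pou5f3 probe set, which cannot tell the transgene from the endogenous gene here, had signals of 5473 in siblings and 8284 in transgenic embryos at 90% epiboly, then 1277 and 2138 at 3-ss.

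Genes next to the members on their chromosomes were also read, from the gene order of the same RefSeq table, taking on each side the nearest protein-coding gene with a signal at both stages, 2 to 4 genes away. Beside elf3 lay srsf3b (log2 ratios 0.10 and 0.10) and znf76 (0.56 and 0.18), beside irf1b rapgef6 (0.26 and 0.39) and sar1b (0.18 and -0.07), and beside cxcl14 fam13b (0.38 and 0.61) and ppargc1b (-1.03 and -0.18). Beside ccn1 lay tgm1l4 (-0.77 and -0.08) and ddah1, whose 2 probe sets disagreed: the brighter had -0.40 and 0.05, and the other 0.98 and 1.46. None of these neighbours was 2-fold higher at either stage by its brightest probe set. ptprn2l could not be placed.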

How the data were processed

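Zebrafish Genome Arrays of 15617 probe sets were hybridised with labelled RNA, 1 array for each of 4 conditions. Intensity values were computed by the authors with MAS5 (version not given in the sources used here) and deposited on a linear scale, scaled so that the mean without the lowest and highest 2% is about 500 on each array. No change call or comparison of the authors was used. Depth has no meaning for arrays, whose number limits the precision.

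The 115 control probe sets were left out. Ratios were computed in pandas 2.3.3 (numpy 2.4.6, Python 3.11.15) after raising signals under 32.4 to that floor. A probe set was measured in a comparison where at least 1 of its 2 arrays reached the floor. Where 1 lay under it the fold is a bound, and where both did none is given. Calls were made at 2-fold and the code was checked on simulated data.

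The annotation gives 1 symbol for 10802 probe sets, several for 135, and does not list 4680. The members and gene lists were chosen with earlier results of these data known. Genes were named by rule: members, their CCN, IRF and PTPRN relatives, at most 4 list genes past 2-fold per stage, the 3 most similar profiles, and those raised at both stages or just below. A few other list genes, and chromosomal neighbours, were added after values were seen. Member sequences were not used here. Alternatives were other floors, thresholds, centring, quantile normalization and other choices among probe sets.

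The study's supplementary text speaks of 12 arrays and its tables head columns by heat shock; the labels, which name genotypes, were followed.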

Additional observations from a re-analysis of the deposited data

Results flagged for a closer look

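Among 111 genes of the lists for relatives of the members, 3 differed in opposite directions at the stages, beyond the SD between probe sets of a gene at each and by at least 2-fold at one of them. The log2 ratio between the genotypes was -0.34 at 90% epiboly and 1.40 at 3-ss for irf7, a difference of 1.74. It was -0.28 and 1.04 for b2m, a difference of 1.32. It was -0.45 (a bound) and 1.06 for ccn2a, a difference of 1.51. Each rests on 1 array per condition, and the difference between the stages was not tested.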

How the results depend on the processing

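The genotype ratios of the 5 genes kept their direction under every alternative run. Of 50 values, 46 moved by less than the SD between probe sets of a gene. The 46 include settings that could not move a ratio, namely no floor and a floor at the median control signal. These probe sets lay over the floor on every array, so such values say nothing about stability. With the floor added to both signals the log2 ratio at 90% epiboly was 1.67 for elf3, 1.57 for irf1b and 1.09 for ccn1, and that of elf3 at 3-ss was 2.09, which the construction of this scale lowers. Averaging the ccn1 probe sets that reach the floor gave 0.94 and 0.96. By the probe sets chosen, all 5 genes stayed past 2-fold at both stages with the floor added, with centring and with quantile normalization.

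The number of probe sets 2-fold higher at both stages rests on the floor and threshold. It was 316 with no floor, 190 with a floor at the median control signal and 9 with the floor added, all 5 genes included. It was 180 at 1.5-fold and 1 (elf3) at 3-fold. It was 19 to 25 with centring or quantile normalization, and 17 without probe sets under the floor on an array.

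List totals over 13 lists stayed within 1.5 times the main counts. In single lists 8 of 104 counts moved further, each by 1 gene except JAK-STAT genes lower at 3-ss, which went from 0 to 2 with quantile normalization. Averaging probe sets took ccn1 out of the CCN and Hippo counts at both stages.

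No paired analysis was possible because each group has 1 array, and leaving out a replicate does not apply.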
